A study of Mus musculus with 64 samples.

Results

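Naive mouse embryonic stem cells (ESCs) are the undifferentiated state from which every tissue of the embryo can form, and their self-renewal in 2i medium rests in part on the WNT pathway. The comparison described here set 3 chromatin immunoprecipitation sequencing (ChIP–seq) libraries of β-catenin against 3 of TCF7L1, the factor that the sample labels call TCF3, all from naive ESCs. These 6 samples were taken by their labels from the 64 of the series, of which 60 had a peak list. The cells were wild-type ESCs of the HM1 line (strain 129) in 2i, labelled with a time of 72 h and no other treatment; 2i is a medium with 3 µM of the GSK3 inhibitor CHIR99021 and 500 nM of the MEK inhibitor PD0325901. The GSK3 inhibitor switches the WNT pathway on inside the cell, so neither protein was measured without it. All libraries came from a single parental line and were labelled as biological replicates 1 to 3 of each protein, which by the study's methods came from separate experiments. β-catenin was precipitated with a rabbit antibody and TCF7L1 with a goat antibody, and therefore the protein and its antibody cannot be told apart. Libraries of other groups were set beside these: SOX2, TCF7L2 (labelled TCF4) and LEF1 in the same naive ESCs, and β-catenin and TCF7L1 in 3 differentiated states. CEpiLCs were wild-type caudal epiblast-like cells made at day 3 with FGF, a blocker of WNT secretion and, last, CHIR99021. SOX2-ON and SOX2-OFF were cells under the same regime that lacked endogenous Sox2 and carried a doxycycline-driven Sox2 transgene, with 1 µg per ml doxycycline in SOX2-ON and with doxycycline withdrawn in SOX2-OFF.

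β-catenin does not bind DNA by itself. When WNT signals or GSK3 inhibitors stop its destruction, it enters the nucleus and is held on chromatin by the TCF/LEF factors, HMG-box proteins that recognise a short CTTTGA-type motif. TCF7L1 is the most abundant of these in ESCs and acts mainly as a repressor of pluripotency genes, an action that β-catenin relieves, whereas TCF7L2, LEF1 and TCF7 are better known as partners in activation. The question asked of the data was how far the places where β-catenin and TCF7L1 were found coincide, and which sites and nearby genes set them apart.

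Sequences of sites that carry the comparison are printed here, and the values behind them follow. The windows run 121 bp around the peak summit on the plus strand of GRCm38 (mm10), with every TCF motif (CTTTGAA or CTTTGAT, either strand) in capitals. The first pair were among the strongest sites of both proteins, the next 3 were sites of both proteins with a higher scaled fold for β-catenin, and the last pair were called for TCF7L1 alone.
Clstn2 intron, chr9:97477121-97477241: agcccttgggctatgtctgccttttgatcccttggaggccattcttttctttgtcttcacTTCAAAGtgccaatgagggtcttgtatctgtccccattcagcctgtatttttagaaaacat
Cdx2 intron, chr5:147304347-147304467: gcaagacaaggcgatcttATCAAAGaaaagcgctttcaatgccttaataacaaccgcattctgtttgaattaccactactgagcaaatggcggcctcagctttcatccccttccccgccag
Lef1 upstream, chr3:131106041-131106161: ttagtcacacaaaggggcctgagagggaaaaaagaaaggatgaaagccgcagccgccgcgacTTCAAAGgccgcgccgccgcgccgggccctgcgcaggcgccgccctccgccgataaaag
Msx1 nearby, chr5:37826850-37826970: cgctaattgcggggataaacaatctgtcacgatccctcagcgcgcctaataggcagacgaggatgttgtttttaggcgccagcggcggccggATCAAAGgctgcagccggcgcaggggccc
Hes7 nearby, chr11:69118041-69118161: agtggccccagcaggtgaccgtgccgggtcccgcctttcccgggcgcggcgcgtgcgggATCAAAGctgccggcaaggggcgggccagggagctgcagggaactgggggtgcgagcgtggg
Rsrc1 intron, chr3:67103789-67103909: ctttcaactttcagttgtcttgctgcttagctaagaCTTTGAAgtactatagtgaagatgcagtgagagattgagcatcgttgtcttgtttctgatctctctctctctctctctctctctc
Col1a2 distal, chr6:4414320-4414440: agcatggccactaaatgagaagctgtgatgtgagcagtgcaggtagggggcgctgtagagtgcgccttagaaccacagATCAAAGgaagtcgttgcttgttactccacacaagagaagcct

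The lists differed widely in length. β-catenin replicates 1 to 3 held 49737, 222062 and 76699 peaks, and TCF7L1 replicates 1 to 3 held 660387, 23347 and 117055. The spread within each protein covered the other, and the mean log10 number of peaks differed by -0.11 (exact two-sided permutation test, p = 0.9; with 3 libraries against 3 no p can fall below 0.1). The peak lists carry no read totals, so the depth of each library is unknown. Each library was therefore represented by its 20000 peaks of highest −log10 p, and overlapping peaks of the 6 lists (1 bp or more in common) were joined, which gave 49633 sites. At this length β-catenin replicate 2 stood apart from the other 5 libraries, with 41.5% of its peaks on average overlapping those of each TCF7L1 library, against 67.2% for replicate 1 and 60.9% for replicate 3. LEF1 replicate 1, used only as an outside measurement, overlapped few sites of any kind. In replicate 1 of β-catenin and of TCF7L1 the coding exons of Tfap2a held peaks of up to 99.8-fold and 28.7-fold over input, against at most 6.33-fold elsewhere, and the coding exons of Tcf7l1 peaks of up to 22.1-fold and 10.7-fold.

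Sites found in every library of both proteins numbered 6432 and are called shared here (13% of the 49633 merged sites). Only 90 sites had a peak in all β-catenin lists and in no TCF7L1 list (0.181%), and 473 had a peak in all TCF7L1 lists and in no β-catenin list (0.953%). Of the 7400 sites present in all β-catenin lists the shared sites made up 86.9%, and of the 11108 present in all TCF7L1 lists they made up 57.9%. The strongest shared site, by the lower of the proteins' median folds, was the window printed first, in an intron of Clstn2, a gene for a synaptic calsyntenin. Its folds over input were 145, 109.6 and 193 in β-catenin replicates 1 to 3 and 217, 192 and 404 in TCF7L1 replicates 1 to 3, and SOX2, TCF7L2 and LEF1 had a peak there in 3 of 3 libraries each. A further 2974 sites had all TCF7L1 libraries and 2 of the β-catenin libraries. Leaving out β-catenin replicate 2 raised the shared sites to 8981 and the β-catenin only sites to 621, and gave 555 TCF7L1 only sites. Without β-catenin replicate 1 or 3 these counts were 199 and 240 for β-catenin only and 1298 and 797 for TCF7L1 only, and without TCF7L1 replicates 1, 2 and 3 the TCF7L1 only sites numbered 1340, 905 and 892. The β-catenin only sites numbered 144 without TCF7L1 replicate 2 and 160 without replicate 3. The 27820 sites seen in 1 library of the 6 made up 56.1% of all, and of these 17972 were β-catenin peaks.

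**Figure D1:**
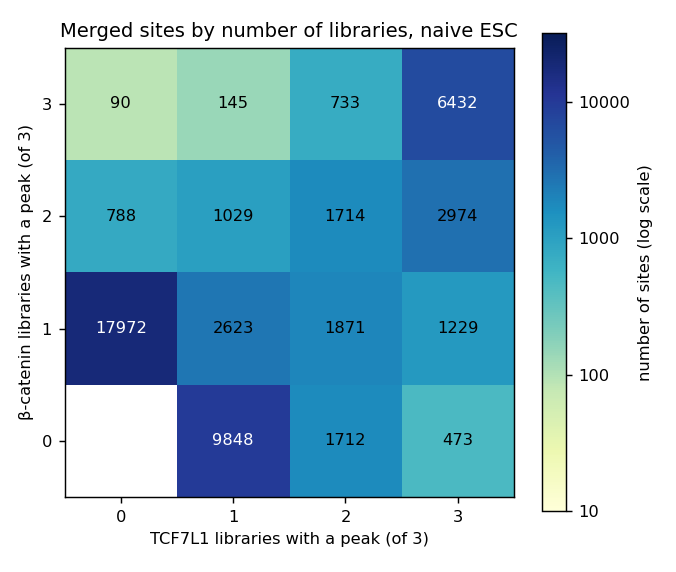
Merged sites counted by the number of β-catenin libraries (vertical axis) and TCF7L1 libraries (horizontal axis) with a peak there; colour gives the number of sites on a log scale. The corner with all 6 libraries holds 6432 sites, against 90 and 473 in the corners with 3 libraries of a single protein.

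At 20000 peaks, lists of the same protein did not resemble each other detectably more than lists of different proteins; among the strongest peaks they did so by a small margin. The Jaccard index, the base pairs covered by both lists as a share of those covered by either, averaged 0.369 over the 6 pairs of libraries of the same protein and 0.365 over the 9 pairs of different proteins (difference 0.0036, one-sided exact permutation test over the 10 ways to divide the libraries, p = 0.4). In the 1000 and the 2000 best peaks the difference was 0.0197 and 0.018 (one-sided exact permutation tests, p = 0.1 in both, the smallest that 10 divisions allow). At 20000 peaks same-protein pairs ranged from 0.263 to 0.459 and different-protein pairs from 0.236 to 0.468. β-catenin replicate 1 resembled the TCF7L1 libraries (mean 0.443) more than the other β-catenin libraries (0.350), and the same held for replicate 3 (0.398 and 0.348). Summits of overlapping peaks lay 25 to 37 bp apart at the median in pairs of the same protein and 26 to 39 bp in pairs of different proteins, and the means differed by 1 bp (31.3 and 32.3 bp, one-sided exact permutation test, p = 0.1, the smallest that 10 divisions allow). Across the 6432 shared sites the order of the fold values was also alike, with Spearman's rho of 0.707 to 0.881 within proteins and 0.647 to 0.823 between them. These correlations run over sites that share libraries and are given as a description. The naive samples of the series include a single input library, so the folds of different proteins may also share their control.

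The strongest peaks were those most often found with the other protein. Among the 1000 best peaks of each library, 99.5% to 100% overlapped a peak in all 3 lists of the other protein. In ranks 15001 to 20000 this fell to between 4.3% and 15.4%, and 42.8% to 83.1% of those peaks overlapped no list of the other protein. In β-catenin replicate 2 the drop came early, with 51.1% of the peaks in ranks 5001 to 10000 overlapping no TCF7L1 list, against 7.42% and 8.52% in the other β-catenin libraries.

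At 20000 peaks per library the TCF motif was more frequent under TCF7L1 peaks than under β-catenin peaks. It lay within 100 bp of the summit of 34.6%, 23.4% and 31.1% of the peaks in β-catenin replicates 1 to 3, and of 35.9%, 40.1% and 40.1% in TCF7L1 replicates 1 to 3. Windows 5000 bp away held it at 8.06% to 8.34%, and 4.15% of windows around all 41408 protein-coding transcript starts did. The groups did not overlap, and the mean share was 29.7% ± 5.7 for β-catenin and 38.7% ± 2.4 for TCF7L1 (SD, n = 3; exact two-sided permutation test, p = 0.1, the smallest possible; 0.6 after Benjamini-Hochberg adjustment over 6 motifs). Without replicate 2 of both, the difference of -9.01 percentage points shrank to -5.19, and in the 5000 best peaks of each library, where β-catenin replicate 2 lay near its replicates, it was -5.71 (42.7% to 44.7% against 48.9% to 50.7%). In the 1000 best peaks and over all deposited peaks the groups overlapped. In both proteins the motif sat close to the summit, at a median distance of 29, 34 and 31 bp in β-catenin and of 27, 26 and 23 bp in TCF7L1 among peaks that held it within 100 bp. The share fell with rank in every library, from between 57.5% and 63.6% in the 1000 best peaks to between 13.7% and 34.6% in ranks 15001 to 20000.

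**Figure D2:**
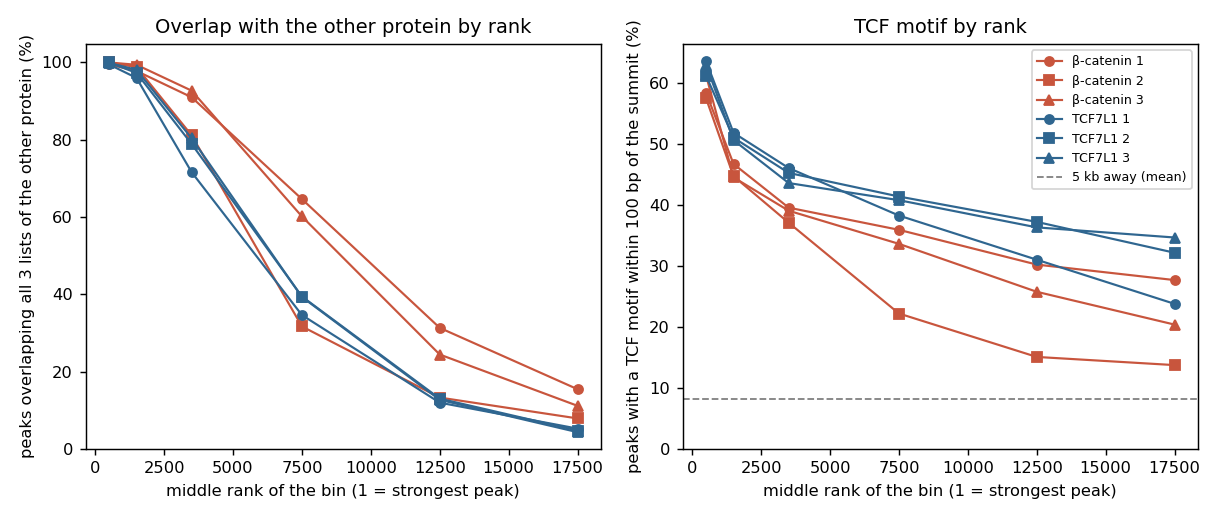
Left, the share of peaks that overlap all 3 lists of the other protein; right, the share with a TCF motif within 100 bp of the summit, both in percent against the middle rank of 6 bins, with 1 line per library (β-catenin red, TCF7L1 blue) and the mean share 5000 bp away dashed. Overlap starts at 99.5% to 100% and falls below 15.5% in the last bin, and the motif share of β-catenin replicate 2 drops to 13.7%.

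For the other motifs the groups overlapped at this length. The SOX motif (CATTGT or CTTTGT) was found at 42.9% ± 4.8 of β-catenin and 47.9% ± 3.1 of TCF7L1 peaks, and the OCT-SOX core (TTGTNATGC, whose first bases can be part of a SOX motif) at 2.53% ± 0.52 and 2.95% ± 0.56 (SD, n = 3; exact permutation tests, p = 0.2 and p = 0.4). The motif of ESRRB, an orphan nuclear receptor of naive pluripotency (AAGGTCA), was found at 9.49% ± 2.1 and 9.28% ± 0.79 (exact permutation test, p = 0.9). The OCT motif (ATGCAAAT) was found at 3.65% ± 0.65 and 4.48% ± 0.62, and the KLF motif (CCACNCCC), read by Krüppel-like factors, at 11.4% ± 2.1 and 11.2% ± 0.68 (SD, n = 3; exact permutation tests, p = 0.3 and p = 0.9). Among the strongest peaks the ESRRB motif was more frequent in β-catenin. In the 2000 best peaks of each library 10.6%, 9.45% and 10.1% of β-catenin and 7.5%, 6.85% and 7.25% of TCF7L1 peaks held it, and the groups stayed apart in the 1000 and the 5000 best (exact permutation tests, p = 0.1 at each of the 3 lengths, the smallest possible). Over all deposited peaks the difference was -0.05 percentage points. Promoters, here summits within 1000 bp of a protein-coding transcript start, took up 8.33%, 5.1% and 7.36% of β-catenin peaks and 6.96%, 5% and 5.85% of TCF7L1 peaks (exact permutation test, p = 0.4), against 3.14% to 3.5% of windows 5000 bp away.

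Within the shared sites the amount of enrichment was compared next, because a site can carry both proteins and still favour either. Fold values over input, as deposited, were taken on the log2 scale, brought to a common distribution by quantile normalisation and tested with limma. Of 6432 sites 11 differed with an adjusted p below 0.05 (0.171%), all 11 of them higher for β-catenin, with log2 differences of 1.5 to 1.90, and 681 had an unadjusted p below 0.05. Median centring in place of quantile normalisation also called 11, and a replicate block called 13, of which 1 was higher for TCF7L1. With replicate 1, 2 or 3 of both proteins left out, limma called 0 sites, with 568, 523 and 457 at an unadjusted p below 0.05, while the log2 differences of the 11 stayed between 1.25 and 2.16. Differences were otherwise small: 90% of sites lay between -0.59 and 0.59, and 44 sites favoured β-catenin and 12 favoured TCF7L1 by more than 1 on the log2 scale.

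The site 4370 bp from the start of Lef1, a TCF/LEF factor that is itself a WNT target (chr3:131105539-131106404), had deposited folds of 43.4, 26.3 and 40.9 in β-catenin replicates 1 to 3 and of 29.7, 11.4 and 24.6 in TCF7L1 replicates 1 to 3. On the scaled log2 values the groups did not overlap, and β-catenin was higher by 1.57 (limma, adjusted p = 0.0307). Near Msx1, a homeobox factor (chr5:37826645-37827327), folds were 46.5, 24.1 and 29.3 against 12.3, 9.17 and 26.1, a difference of 1.90 (limma, adjusted p = 0.00774). Near Hes7, a repressor of the segmentation clock (chr11:69117846-69118326), they were 23.0, 9.08 and 20.0 against 6.77, 6.17 and 13.5, a difference of 1.57 (limma, adjusted p = 0.0307). At the promoter of Arl2, which encodes a small GTPase, they were 16.4, 10 and 22.6 against 6.64, 4.2 and 11.9, and at that of Il17rd, an inhibitor of FGF signalling, 21.6, 7.76 and 16.1 against 8.72, 3.96 and 8.02. The log2 differences at these promoters were 1.75 and 1.56 (limma, adjusted p = 0.0170 and 0.0307). The other sites lay nearest to 1700001O22Rik, Arglu1, 4931429L15Rik, Fam133b and Mylk, at 16903 to 229602 bp from the start, and 1 more lay on chromosome 18. At each of the 5 sites with values above, the highest raw TCF7L1 fold exceeded the lowest raw β-catenin fold, that of replicate 2, so the separation is one of scaled values.

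All 11 sites had a TCF7L2 peak in 3 of 3 naive TCF7L2 libraries, which had no part in choosing them. Over all shared sites 579 of 6432 had this (9%), and in shared sites of the same range of β-catenin fold (median of the 3 libraries, 16.1 to 57.8) 378 of 2548 did (14.8%). The wider group of 44 sites that favoured β-catenin by more than 1 on the log2 scale, which includes the 11, held 23 such sites (52.3%). The 12 that favoured TCF7L1 held 0, but they lay in a lower range of β-catenin median fold (6.73 to 13.9) than the 11. Taken by TCF7L2, the 579 sites with all 3 libraries did not lean to β-catenin as a group. Their median log2 difference was 0.02 (quartiles -0.19 and 0.26), against 0.003 at the 3197 with no TCF7L2 peak. Groups past a log2 difference of 1 were also formed with 1 replicate left out of both proteins. On the β-catenin side 30.9% to 39.4% of the sites then had all 3 TCF7L2 libraries. On the TCF7L1 side 3 of 45, 0 of 42 and 2 of 45 did, without replicates 1, 2 and 3. At the Lef1 site the TCF7L2 folds were 46.1, 53.2 and 62.8, and near Msx1 they were 22.3, 24.2 and 15.2. Raw folds of different antibodies are not on a common scale, so they do not compare the amounts of TCF7L2 and TCF7L1. A TCF motif lay within 100 bp of the summit of 9 of the 11 sites, against 45.6% of all shared sites. For LEF1, of which replicate 1 overlapped few sites of any kind, 3 of the 11 had a peak in at least 2 libraries. No LEF1 peak was present at 3 of the 11 (27.3%), against 34.6% of all shared sites. In the full lists LEF1 replicates 2 and 3 had peaks of 17.7 and 8.82-fold at Lef1 and of 16.4 and 4.8-fold near Msx1. At Arglu1 and Hes7 no full LEF1 list had a peak.

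**Figure D3:**
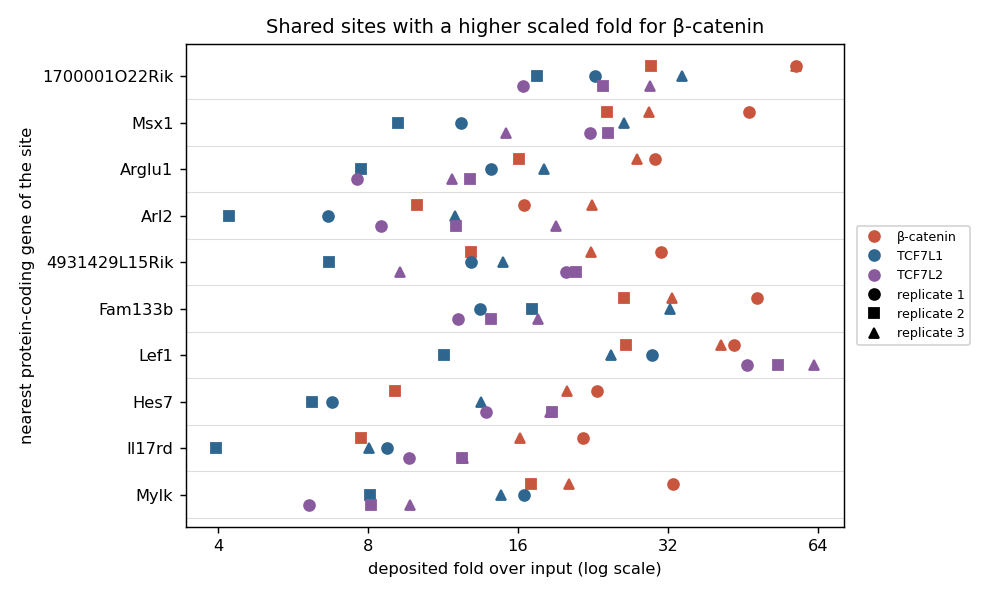
Deposited fold over input (horizontal, log scale) at 10 of the 11 shared sites with a higher scaled fold for β-catenin, named by the nearest protein-coding gene; points are single libraries of β-catenin (red), TCF7L1 (blue) and TCF7L2 (purple), with the symbol giving the replicate. At Lef1 the TCF7L2 libraries lie at 46.1 to 62.8 and the TCF7L1 libraries at 11.4 to 29.7. Raw folds of different antibodies are not on a common scale.

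At the sites that favoured TCF7L1 by more than 1, none of which passed the limma test (adjusted p of 0.199 to 0.356), the SOX motif was present in 11 of 12 and the TCF motif in 6 of 12, beside 51.3% and 45.6% of all shared sites. The largest difference, -1.56, was at a site 9022 bp from Trmt10b, a tRNA methyltransferase, with folds of 16.9, 6.73 and 5.32 for β-catenin and 49.6, 29.1 and 37.6 for TCF7L1 (limma, adjusted p = 0.209). Over all shared sites the median difference was 0.14 where an ESRRB motif was present (642 sites) and -0.02 where it was absent, and -0.07 with and 0.04 without a TCF motif (2930 and 3502 sites).

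SOX2, the HMG-box partner of OCT4 in pluripotent cells, occupied most shared sites and fewer of the rest. Of the shared sites 53.8%, 76.2% and 71.4% had a peak in SOX2 replicates 1 to 3, against 22.2%, 34.4% and 35.6% of the β-catenin only sites and 11.4%, 24.1% and 25.2% of the TCF7L1 only sites. In each SOX2 library the order was the same, and windows of the same size 5000 bp from the shared sites had a peak in 3.01% to 4.17%. TCF7L2 followed the order too, with 18.4%, 41.8% and 21.2% at shared sites, 14.4%, 12.2% and 7.78% at β-catenin only sites and 2.96%, 5.5% and 4.86% at TCF7L1 only sites. LEF1 replicates 2 and 3 were at 61.5% and 22% of the shared sites, at 15.6% and 8.89% of the β-catenin only sites and at 10.4% and 3.59% of the TCF7L1 only sites, whereas LEF1 replicate 1 was at 2.67%, 1.11% and 0.423%. Over all merged sites the shares in replicates 1 to 3 were 16.8%, 25.8% and 24.3% for SOX2 and 4.9%, 8.91% and 4.83% for TCF7L2. For both proteins the β-catenin only sites lay above these shares. The TCF7L1 only sites lay below them in replicates 1 and 2 and slightly above in replicate 3. The β-catenin only and TCF7L1 only sites were weaker than the shared sites (below). They were also narrower, with median widths of 397.5 and 417 bp against 768 bp. The part of strength and width in these shares was not tested.

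**Figure D4:**
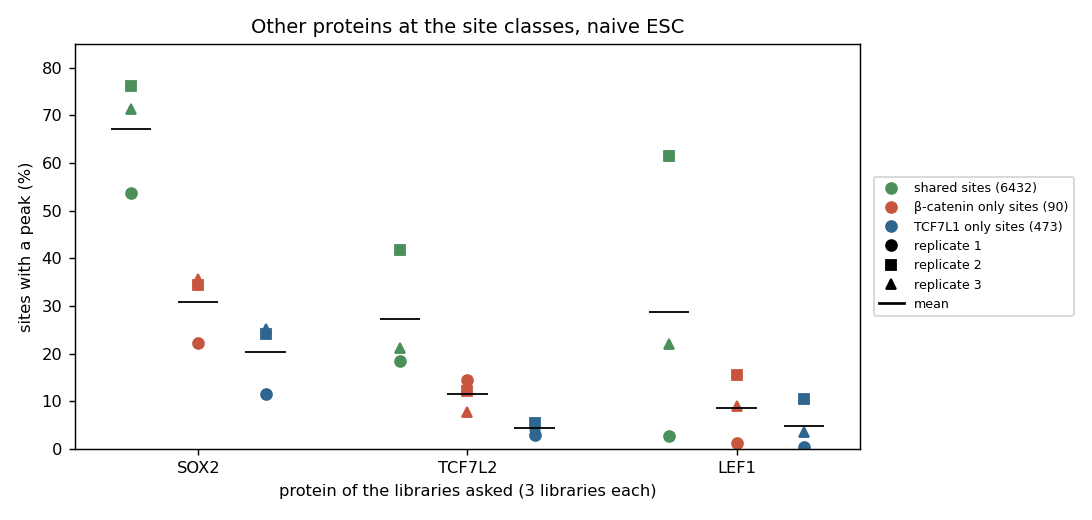
Percent of shared, β-catenin only and TCF7L1 only sites with a peak in each SOX2, TCF7L2 and LEF1 library of naive ESCs; points are libraries, symbols replicates, and lines the mean of 3. Shared sites (53.8% to 76.2% for SOX2) lie above the other classes for every library.

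The shared sites fell into groups of different sequence when divided by SOX2. The 3044 shared sites with a peak in 3 of 3 SOX2 libraries (47.3%) held a TCF motif in 30.9%, a SOX motif in 60.9% and an OCT-SOX core in 5.39%. The 1027 with no SOX2 peak (16%) held a TCF motif in 75%, a SOX motif in 32.3% and an OCT-SOX core in 0.974%, and the 2361 with 1 or 2 SOX2 libraries lay between (51.6%, 47.2% and 2.54%). Windows 5000 bp from shared sites held the motifs in 8.11%, 26.8% and 0.428%. Sites without SOX2 were weaker for both proteins, with median folds of 12.8, 8.83 and 10.9 in β-catenin replicates 1 to 3 and 17.9, 12 and 26.6 in TCF7L1 replicates 1 to 3, against 21.8, 12.6 and 18.3 and 25, 18.2 and 43.2 where all SOX2 libraries had a peak. The median difference between the proteins was -0.07 and 0.05 on the log2 scale in these groups.

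The 90 β-catenin only sites had lower folds than the shared sites. Their median fold was 7.04, 6.83 and 6.54 in β-catenin replicates 1 to 3, against 17.6, 10.7 and 14.9 at shared sites, and in the full deposited lists of TCF7L1, without the limit of 20000, 22 of them overlapped a peak in 1 list, 49 in 2 and 12 in all 3. A TCF motif was present in 21.1% (19 sites) against 45.6% of shared sites, a KLF motif in 20% against 11.3%, and 20% lay at promoters against 4.07% (18 and 262 sites). Over all merged sites the shares were 27.1%, 10.5% and 7.58%. Weak β-catenin peaks in general, those of ranks 15001 to 20000, held the TCF motif in 13.7% to 27.7%, a range that includes the share of this class. The KLF motif was in 7.64% to 14.5% of them, and 4.78% to 12.6% lay at promoters. The median GC content of the 201 bp around the summit was 52% against 46.8% at shared sites, and promoters as a whole held the KLF motif in 12.5%. The promoter sites included that of Notum, which encodes an extracellular enzyme that inactivates WNT proteins, with folds of 5.41, 5.83 and 5.76 in the β-catenin lists (chr11:120660585-120661372). At Notum a shared site lay 3060 bp from the start, and a TCF7L1 peak overlapped the promoter site in 1 of the full lists. Other promoters of the class were those of Acsl3, an acyl-CoA synthetase, with folds of 7.65, 7.47 and 6.09, Nr3c2, the mineralocorticoid receptor, with 5.64, 6.74 and 6.03, and Rab5a, a small GTPase of endosomes, with 7.3, 6.42 and 8.23. They were chosen as examples after the values were seen.

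Only 7 of the β-catenin only sites overlapped no peak in any full TCF7L1 list. The strongest by median fold lay in an intron of Tcf20, a transcriptional coregulator, with folds of 16, 6.63 and 5.92, followed by a site 7702 bp from Ctdsp2, a phosphatase gene, with 6.56, 6.26 and 8.4. Promoter sites at Mrpl15, a mitochondrial ribosomal protein gene, and Castor1, which encodes an arginine sensor, had median folds of 5.25 and 4.2. The remaining 3, in an intron of Lama1 and nearest to Fgf14 and A630089N07Rik, had median folds of 5.86, 2.52 and 2.42. In 3 of the 7 windows of 201 bp (42.9%) most bases were masked as repeats in the reference, against 17% of shared sites and 21.1% of all β-catenin only sites, and reads from repeats cannot be placed with certainty.

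The 473 TCF7L1 only sites also had lower folds than the shared sites, but unlike the β-catenin only sites they often held the TCF motif. Median folds were 10.8, 6.2 and 13 in TCF7L1 replicates 1 to 3 against 21.3, 15.5 and 35.7 at shared sites. The TCF motif was present in 50.3% (238 sites) and the SOX motif in 48.4%, against 45.6% and 51.3% of shared sites, while the OCT-SOX core was present in 1.27% against 3.64%. In the full β-catenin lists 137 of the 473 overlapped a peak in 1 list, 196 in 2 and 87 in all 3. The 53 that overlapped none held the TCF motif in 64.2% (34 sites) and 60.4% of them were intronic. The strongest by median fold was in an intron of Magi1, a scaffold protein of cell junctions, with folds of 13.8, 8.06 and 14.4 and a TCF, a SOX and an ESRRB motif. Next came an intron of Prss30, a serine protease gene, with 13.6, 9.31 and 14, and an intron of Rsrc1, a splicing factor gene, with 13, 7.37 and 16.7. The promoter of AI413582 had folds of 16.3, 4.03 and 12.6, a site 91113 bp from the collagen gene Col1a2 had 12.5, 6.2 and 15.3, and an intron of Elavl2, a neuronal RNA-binding protein gene, had 14.2, 5.27 and 12.3. The last sites of the 8 lay in the nonagouti gene and in Zfp60, with median folds of 12.3 and 12.2. Of these 8 sites 5 held a TCF motif within 100 bp of the summit.

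The sites were then looked up in cells that had no part in defining them, in equal lists of 3423 β-catenin and 1626 TCF7L1 peaks per library. These were the lengths of the shortest lists, β-catenin replicate 2 of SOX2-OFF and TCF7L1 replicate 1 of CEpiLCs, which entered whole. The shared sites of naive ESCs had a β-catenin peak in 28.6% ± 1.3 in SOX2-ON, 21.1% ± 0.76 in SOX2-OFF and 19.3% ± 1.04 in CEpiLCs (SD, n = 3), beside 49.6% ± 0.49 in the naive lists of that length. The libraries of the 3 differentiated states did not overlap (exact two-sided permutation tests, p = 0.1 for each pair, the smallest possible; adjusted p = 0.257 over 18 comparisons). TCF7L1 was at 14.4% ± 6.98, 14.3% ± 1.04 and 10.9% ± 2.3 of the shared sites in SOX2-ON, SOX2-OFF and CEpiLCs, beside 25% ± 0.14 in naive ESCs. Both naive values follow from list length and from the choice of the sites, which the same naive libraries defined. Of the naive lists, 94.3% of β-catenin and 99.2% of TCF7L1 peaks fell on shared sites. The step from naive to the other states therefore does not measure loss of binding. In SOX2-ON the TCF7L1 values ran from 6.37% to 18.5%. Read from the other side, 54.5% of the SOX2-ON β-catenin lists, 40.4% of the SOX2-OFF lists and 36.6% of the CEpiLC lists fell on naive shared sites.

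At the β-catenin only sites the order of the states depended on list length. In the same lists they had a β-catenin peak in 13.3% ± 2.9 in CEpiLCs, 7.04% ± 1.7 in SOX2-OFF and 6.67% ± 2.2 in SOX2-ON. The naive lists of this length gave 1.85% ± 1.3, a low value that follows from the choice of these sites, which were weak in naive ESCs. CEpiLCs, at 10% to 15.6%, did not overlap SOX2-OFF or SOX2-ON, at 4.44% to 8.89% (exact permutation tests, p = 0.1 for each pair, the smallest possible; adjusted p = 0.257). With all deposited peaks the shares were 33.7% in CEpiLCs, 24.8% in SOX2-OFF and 44.8% in SOX2-ON, so SOX2-ON then lay highest. TCF7L1 was found there, in the equal lists, in 2.22% ± 1.9, 1.11% and 0.741% ± 0.64, and in SOX2-OFF its 3 libraries gave the same 1.11%. The TCF7L1 only sites had a TCF7L1 peak in 1.83% ± 1.1 of cases in CEpiLCs, 2.47% ± 0.44 in SOX2-OFF and 1.34% ± 0.61 in SOX2-ON. β-catenin peaks lay at 2.61% ± 0.49, 3.38% ± 0.37 and 3.45% ± 0.65 of them.

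Naive ESCs were the state in which the lists of β-catenin and TCF7L1 overlapped most. At 1626 peaks per library the mean Jaccard index over the 9 pairs was 0.487 in naive ESCs (0.401 to 0.539) and 0.359 in SOX2-OFF (0.288 to 0.443). It was 0.305 in SOX2-ON (0.0793 to 0.518) and 0.265 in CEpiLCs (0.09 to 0.4). The highest CEpiLC pair lay just below the lowest naive pair (0.3997 and 0.4005). TCF7L1 replicate 1 of CEpiLCs had only 1626 peaks and entered whole. TCF7L1 replicate 1 held the TCF motif in 24.2% of these peaks in SOX2-ON and 38.7% in CEpiLCs, against 57.9% to 62.9% in replicates 2 and 3. The SOX2-ON and CEpiLC means include these libraries. Pairs of the same protein averaged 0.506, 0.376, 0.293 and 0.362, and the excess over pairs of different proteins was 0.0195, 0.0166, -0.0114 and 0.0965 (one-sided exact permutation tests over 10 divisions, p = 0.1, 0.4, 0.7 and 0.1). Among the partners measured in naive ESCs at 20000 peaks, β-catenin overlapped TCF7L1 more (0.365) than SOX2 (0.218), LEF1 (0.0697) or TCF7L2 (0.0521). TCF7L1 overlapped SOX2 at 0.231, LEF1 at 0.0688 and TCF7L2 at 0.0486. The LEF1 means include LEF1 replicate 1, which overlapped few sites of any kind. Single pairs with LEF1 ran from 0.0028 to 0.179 for β-catenin and from 0.0022 to 0.18 for TCF7L1.

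Shared sites were common at the loci of naive pluripotency genes. A locus here is the gene with 10 kb upstream, and 2994 of 21938 protein-coding loci held a shared site (13.6%), 58 a β-catenin only site (0.264%) and 370 a TCF7L1 only site (1.69%). Of 22 pluripotency genes 15 held a shared site (68.2%), with 27 such sites among them, and 0 held a site of either single-protein class. The strongest was 2280 bp from Tfcp2l1, a transcription factor of the naive state, with folds of 72.3, 40.4 and 71.1 for β-catenin and 96.8, 107 and 228 for TCF7L1 (chr1:118625085-118626559). Near Klf2, a Krüppel-like factor of the same network, they were 42.2, 31.2 and 63.7 against 75.5, 44.5 and 146. At a promoter of Esrrb, the gene of the nuclear receptor, they were 30.5, 11.2 and 34.3 against 40.3, 24.8 and 79.1, and at that of Nanog, the homeobox factor, 19.8, 12.5 and 15.3 against 23.7, 13.6 and 29.7. At the promoter site of Pou5f1, which encodes OCT4, they were 35.3, 13.4 and 36.5 against 33.4, 29.2 and 49.8. Upstream of Socs3, the feedback inhibitor of LIF and STAT3 signalling, β-catenin had 68.9, 29.2 and 53.2 and TCF7L1 53.6, 31.1 and 80, and this site had the largest log2 difference of the list, 0.75 (limma, adjusted p = 0.35). The median log2 difference over the 15 sites was 0.17, with 11 above 0, beside -0.01 over all shared sites. This was not particular to the list. The medians were 0.08 for WNT targets and feedback, 0.15 for WNT components, 0.18 for primed epiblast and 0.13 for germ layer and caudal genes. Each listed site is the strongest shared site of its locus, whereas the value over all shared sites takes in sites of any strength.

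Loci of the list that held no shared site were those of Sox2, Klf4, Nr0b1, Zfp42, Fgf4, Zfp281 and Stat3. At Klf4, another Krüppel-like factor, the best site had folds of 25.8 and 14.8 in β-catenin replicates 1 and 3 and 13.5 in TCF7L1 replicate 1, with no peak in the lists of the other libraries. At Zfp42, a marker of naive cells, 5 of 6 libraries had a peak at the promoter, with folds of 5.06 and 5.61 in β-catenin replicates 1 and 2 and of 12.3, 5.71 and 11.6 in TCF7L1. Of the 8 genes taken as markers of naive ESCs, 5 held a shared site; peaks are not expression, so the label of the cells could not be checked further.

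The WNT targets and feedback genes were shared loci in 13 of 20 cases (65%), and 1, Notum, also held a β-catenin only site. In an intron of Cdx2, a homeobox factor of caudal identity, folds were 104, 70.8 and 109 for β-catenin and 92.7, 108 and 202 for TCF7L1 (chr5:147303493-147305566). At Sp5, a WNT-induced repressor, they were 72.1, 29.6 and 62.9 against 41.4, 40.5 and 91.9, and at Axin2, the scaffold that closes the negative feedback loop of the pathway, 36.3, 18.3 and 44.6 against 38, 22.2 and 57.6. The log2 differences were 0.80 at Sp5 and 0.54 at Axin2 (limma, adjusted p = 0.33 and 0.47), so among the 13 sites Lef1, described above, passed the test and the other 12 did not. Upstream of Myc, the growth regulator, β-catenin had 58.9, 23.7 and 42.1 and TCF7L1 52, 52.1 and 120. The membrane E3 ligases that clear WNT receptors, Rnf43 and Znrf3, had values on the other side or near 0, with log2 differences of -0.50 and -0.01 (limma, adjusted p = 0.62 and 0.99). Of these 13 sites 8 had a TCF7L2 peak in 3 of 3 libraries, against 2 of the 15 pluripotency sites and 9% of all shared sites. In the lists below it was 1 of 10 WNT component, 2 of 6 primed epiblast and 0 of 2 germ layer and caudal sites. Shared sites with all 3 TCF7L2 libraries were stronger, with a median fold of 44.6 in β-catenin replicate 1 against 13.8 where TCF7L2 had no peak. The part of strength in these counts was not tested. Loci with no shared site were Tcf7, Nkd1, Dkk1, T, Id2, Jun and Fzd7. At the promoter of Tcf7, a TCF/LEF factor gene, 5 of 6 libraries had a peak, with 14.4, 9.13 and 17.5 for β-catenin and 22.7 and 11.1 in TCF7L1 replicates 1 and 3.

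Of 20 genes for components of the pathway 10 held a shared site (50%) and 0 a site of a single protein. In introns of Tcf7l1 and Tcf7l2, the genes of 2 of the precipitated factors, folds were 30.7, 25.2 and 27 against 47.8, 31.2 and 76.2, and 25.6, 23.2 and 25.7 against 42.5, 31.8 and 67.1. The Tcf7l1 locus also held the coding-exon peaks of replicate 1 given above. At Tle1, a Groucho corepressor that TCF7L1 can recruit, they were 29.7, 17.9 and 32.4 against 26.4, 32.3 and 80.6. At Bcl9l, a coactivator that binds β-catenin, they were 14.1, 7.4 and 14.4 against 39.2, 12.2 and 45.6, the lowest log2 difference of the list at -0.65 (limma, adjusted p = 0.47). At Ctnnb1, the gene of β-catenin, the best site had a peak in 2 of the 6 lists, both of β-catenin, with folds of 5.64 and 6.96. In the full deposited lists it overlapped a peak in 2 lists of each protein.

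The lists of later fates are given in the same way. Of 13 primed epiblast genes 6 held a shared site (46.2%), among them Nodal, a TGFβ family ligand, with folds of 33, 19.6 and 31.8 for β-catenin and 38.9, 27 and 71.4 for TCF7L1, and Otx2, a homeobox factor of the primed state, with 10.4, 14.2 and 12 against 15, 13.7 and 24.9. Of 17 germ layer and caudal genes 2 did (11.8%), beside 13.6% of all protein-coding loci. By nearest gene in place of the locus 8 of the 17 had a shared site. The genes by locus were Msgn1, a factor of presomitic mesoderm, with 46.4, 23.7 and 42.4 against 57.5, 48.9 and 97.5, and Cdx4, a caudal homeobox gene, with 33.6, 25.8 and 30.1 against 38, 35.7 and 58.2. No locus of either list held a site of a single protein.

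**Figure D5:**
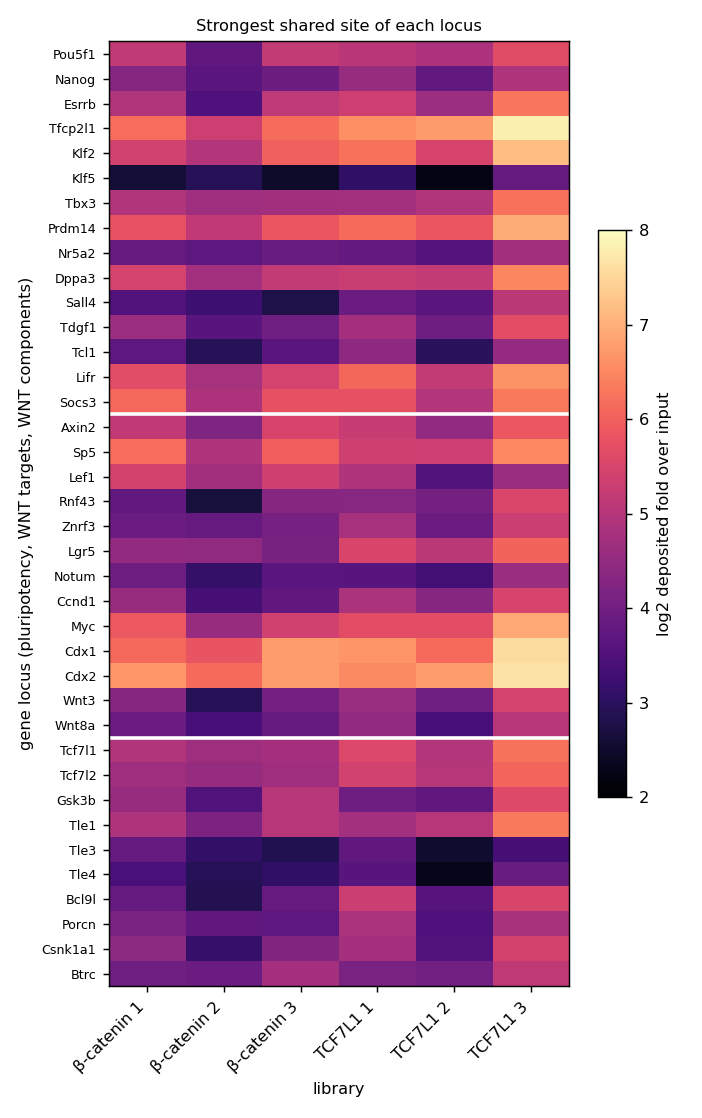
Log2 of the deposited fold over input (colour) at the strongest shared site of each pluripotency, WNT target and WNT component locus that held one (rows, lists parted by white lines) in the 6 libraries (columns). Tfcp2l1, Cdx1 and Cdx2 are bright in every library, and TCF7L1 replicate 3 is the brightest column in most rows.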

How the data were processed

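ChIP–seq peak lists of 6 naive ESC libraries (β-catenin and TCF7L1, 3 each) were used, with 9 further naive lists (SOX2, TCF7L2, LEF1) and 18 lists of β-catenin and TCF7L1 in CEpiLCs, SOX2-ON and SOX2-OFF. Per the study's methods, single-end reads of 76 bp were trimmed, aligned to mm10 with BWA in the nf-core/chipseq workflow, and peaks were called per library against input with MACS2, the tool that the submitters' processing notes also name, at a q-value threshold of 0.05. The deposited lists give, as the authors' caller wrote them, each peak's fold enrichment over input at the summit, its −log10 p and −log10 q, and a score that is −log10 q scaled and made whole. The score was not used. Read totals are unknown, so no counting interval was formed and the number of peaks stood in for depth.

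Lists were limited to the 20000 peaks of highest −log10 p (3423 and 1626 across states) and joined where they overlapped by 1 bp or more. Chromosomes, genes (GENCODE basic set, 21938 protein-coding) and sequence came from GRCm38, the build of mm10. Motifs were matched letter by letter on both strands within 100 bp of the summit and, as background, 5000 bp away. Promoters reached 1000 bp from a transcript start and loci 10 kb upstream of the gene. Where a site held several peaks of a library, its highest fold was taken. Groups followed the labels, with exact permutation tests over libraries. Deposited fold values at shared sites were put on a log2 scale, quantile normalised and fitted with limma 3.58.1 in R 4.3.3, with Benjamini-Hochberg adjustment over 6432 sites, a test added after seeing the data. Other steps used Python 3.11.15, pandas 2.3.3, numpy 2.4.6, pysam 0.24.0 and bedtools 2.31.1, and were tested on simulated data. Members, gene lists and tests were chosen with earlier results of these data known. Named genes were those of 5 lists, the 8 strongest sites of each class (by the lower of the proteins' medians for shared sites, otherwise among sites absent from the full lists of the other protein, where β-catenin had 7) and the sites limma called; those on chromosome 18 were not described one by one.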

Additional observations from a re-analysis of the deposited data

How the results depend on the processing

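The peak lists hold no read totals, the protein and its antibody cannot be told apart, and with 3 libraries against 3 no permutation p can fall below 0.1. How many sites fell in each class depended on list length and on single libraries. Over the 1000, 2000 and 5000 best peaks and all deposited peaks, shared sites numbered 557, 1105, 2598 and 12065, β-catenin only sites 20, 45, 79 and 161, and TCF7L1 only sites 19, 31, 95 and 732. With 2 of 3 libraries taken as present they numbered 11853, 878 and 2185, and with absence asked of the full lists 7 β-catenin only and 53 TCF7L1 only sites remained. Leaving out a replicate or a single library gave 6496 to 9355 shared, 114 to 879 β-catenin only and 555 to 2760 TCF7L1 only sites. By library, β-catenin only sites numbered 199, 621 and 240 without β-catenin replicates 1, 2 and 3, and 144 and 160 without TCF7L1 replicates 2 and 3. TCF7L1 only sites numbered 1298 and 797 without β-catenin replicates 1 and 3, and 1340, 905 and 892 without TCF7L1 replicates 1, 2 and 3.

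Differences that changed sign were small in the main setting, but not in every alternative. The log10 number of peaks differed by -0.11 in the main setting, by 0.40 without replicate 1 and by -0.65 without replicate 2. The others were the excess of same-protein overlap (-0.0281 with all peaks and -0.0112 to 0.0173 with a replicate left out, but 0.0197 and 0.018 in the 1000 and 2000 best peaks, where the one-sided exact permutation test gave p = 0.1), the ESRRB motif (-0.0545 points with all peaks, -0.33 within 250 bp, and -1.15 to 1.32 with a replicate left out) and the KLF motif (-0.285 with peaks ranked by fold and -0.825 to 1.07 with a replicate left out). The mean share of the TCF motif stayed lower in β-catenin under every alternative run, with differences of -3.53 to -12.9 percentage points, but the groups did not always stay apart. In the 1000 best peaks they overlapped (57.5% to 61.3% against 61.2% to 63.6%, exact permutation test, p = 0.2). Over all deposited peaks they did too (11.2% to 25.1% against 11.6% to 38.3%, exact permutation test, p = 0.6). limma called 0 sites without replicate 1, 2 or 3, where each protein is left with 2 libraries.

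For SOX2, shared sites exceeded β-catenin only sites by 20.6 points with all deposited SOX2 peaks and by 52.8 points with classes absent from the full lists, and TCF7L1 only sites by 34.4 and 53.9 points. With all deposited peaks of the other states, shared sites had β-catenin in 68.3% (SOX2-ON), 42.2% (SOX2-OFF) and 35.4% (CEpiLCs) and TCF7L1 in 53.1%, 47.0% and 27.4%. β-catenin only sites had β-catenin in 44.8%, 24.8% and 33.7%, so that SOX2-ON then lay above CEpiLCs, and TCF7L1 only sites had TCF7L1 in 26.2%, 22.9% and 12.5%. With classes absent from the full lists the former were 19.0%, 23.8% and 33.3%, and the latter 0% in SOX2-ON and 3.14% in SOX2-OFF. The Jaccard index between proteins over all deposited peaks was 0.156 in naive ESCs, 0.0543 in SOX2-ON, 0.0545 in SOX2-OFF and 0.0467 in CEpiLCs. By nearest gene in place of the locus, 8 germ layer and caudal genes had a shared site and 1 a β-catenin only site, and 1 WNT component had a TCF7L1 only site. With absence from the full lists, 0 WNT targets had a β-catenin only site. The causes were not tested.

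Whether the replicate numbers pair the samples was not settled. Deviations at shared sites correlated at 0.11, 0.05 and 0.22 for equal numbers and at -0.17 to 0.06 for unequal numbers. Each TCF7L1 replicate correlated best with the β-catenin replicate of its own number, but β-catenin replicate 2 correlated better with TCF7L1 replicate 1 (0.06). The main tests took the libraries as unpaired. With a replicate block the TCF motif difference was -9.01 points (exact sign-flip test over 3 pairs, p = 0.25, the smallest possible), the promoter difference 0.993 points (exact p = 0.25) and the log10 peak difference -0.11 (exact p = 0.75), and limma called 13 sites.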
